A study of Mus musculus with 6 samples.

Results

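The genes of cholesterol and fatty acid synthesis were compared between Il17a knockout and wild-type mouse T cells. A list of 35 genes was used, of 38483 genes in the deposited table: 21 of the sterol branch, 11 of the fatty acid branch and 3 of sterol efflux. Genes were taken by symbol, 34 as the table names them, and Msmo1 by its gene ID because the table lists it under the older symbol Sc4mol. The estimated counts of all transcripts of a gene were summed, and all 35 genes passed the filter on low counts, which kept 15121 genes. The KO group is 3 libraries from mice labelled IL-17A-/-, and the WT group is 3 libraries from mice labelled IL-17A+/+. All 6 come from the strain B10.RIII and from spleen cells selected with a kit for CD4+CD62L+ T cells, the naive helper cells. All were cultured for 3 days toward the Th17 state, the helper T cell state named for its IL-17 cytokines. The medium of both groups held IL-6 (10 ng/ml), IL-23 (10 ng/ml) and TGF-β (1 ng/ml), and antibodies that block IFN-γ (10 µg/ml) and IL-4 (10 µg/ml). Stranded mRNA libraries were sequenced. The labels call the 3 libraries of a genotype biological replicates and number them 1 to 3; whether each came from its own animal, and which cells carry the deletion, are not stated.

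Cells make cholesterol from acetyl-CoA through mevalonate, squalene and lanosterol, and fatty acids from acetyl-CoA through malonyl-CoA. When sterols in the endoplasmic reticulum are scarce, the escort protein SCAP carries SREBP transcription factors to the Golgi, where they are cleaved and released to switch on both pathways; when sterols are plentiful, INSIG proteins hold SCAP back. Excess sterol, as oxysterols, activates the LXR receptors, which switch on the efflux pumps and the SREBP1c promoter. Proliferating T cells draw on both pathways for membranes.

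The stretches upstream of the start of transcription are shown for 8 genes, because SREBP and LXR act at such sites. RefSeq windows of 250 bases before each start (build GRCm38.p6) were found for 27 of the 35 genes, as 36 windows since 6 genes have several starts. They were searched on both strands for a sterol element (TCACNCCAC), the CCAAT box (CCAAT), the E-box (CACGTG) and an LXR-type direct repeat (DR4, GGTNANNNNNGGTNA), where N is any base. Capitals mark the matches, which read ATTGG for a CCAAT box on the other strand. Idi1 and Abca1 are shown because they passed 1 test of genotype, Insig2 and Hsd17b7 because they differed by replicate number, and Insig1 and Srebf1 as the partners of Insig2 and Srebf2; Hmgcs1 and Fasn were added after their values were seen.
Hmgcs1 (chr13:119690101-119690350, + strand): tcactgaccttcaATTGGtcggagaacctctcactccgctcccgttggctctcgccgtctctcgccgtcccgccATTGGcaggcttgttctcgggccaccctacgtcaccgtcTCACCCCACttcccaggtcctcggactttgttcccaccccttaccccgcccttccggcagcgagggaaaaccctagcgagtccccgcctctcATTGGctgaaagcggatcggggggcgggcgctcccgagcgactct
Idi1 (chr13:8885356-8885605, + strand): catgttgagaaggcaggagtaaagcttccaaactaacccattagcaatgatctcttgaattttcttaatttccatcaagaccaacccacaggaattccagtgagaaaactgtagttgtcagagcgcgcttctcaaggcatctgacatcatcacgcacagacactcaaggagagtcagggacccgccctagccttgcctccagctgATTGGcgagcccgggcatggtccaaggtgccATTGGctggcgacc
Hsd17b7 (chr1:169969206-169969455, - strand): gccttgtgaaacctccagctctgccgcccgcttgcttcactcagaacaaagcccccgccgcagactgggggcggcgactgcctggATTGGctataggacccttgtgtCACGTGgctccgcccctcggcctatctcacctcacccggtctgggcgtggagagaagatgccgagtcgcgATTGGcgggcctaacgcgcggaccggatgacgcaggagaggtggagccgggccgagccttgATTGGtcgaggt
Insig1 (chr5:28071162-28071411, + strand): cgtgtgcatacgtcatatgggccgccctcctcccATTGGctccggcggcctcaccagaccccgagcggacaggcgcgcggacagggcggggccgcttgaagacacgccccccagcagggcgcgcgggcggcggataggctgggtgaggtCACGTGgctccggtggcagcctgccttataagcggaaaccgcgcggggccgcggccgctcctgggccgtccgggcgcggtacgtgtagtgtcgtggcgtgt
Insig2 (chr1:121328025-121328274, - strand): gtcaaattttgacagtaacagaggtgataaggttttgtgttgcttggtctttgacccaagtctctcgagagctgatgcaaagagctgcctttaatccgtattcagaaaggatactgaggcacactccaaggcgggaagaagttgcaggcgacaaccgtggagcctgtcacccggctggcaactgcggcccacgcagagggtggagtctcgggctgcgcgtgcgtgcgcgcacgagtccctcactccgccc
Srebf1 (chr11:60210472-60210721, - strand): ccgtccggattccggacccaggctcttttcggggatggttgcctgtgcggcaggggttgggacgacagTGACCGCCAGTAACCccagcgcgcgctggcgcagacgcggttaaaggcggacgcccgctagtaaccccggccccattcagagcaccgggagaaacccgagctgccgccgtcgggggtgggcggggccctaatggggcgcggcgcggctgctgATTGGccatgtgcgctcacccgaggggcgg
Fasn (chr11:120824548-120824797, - strand): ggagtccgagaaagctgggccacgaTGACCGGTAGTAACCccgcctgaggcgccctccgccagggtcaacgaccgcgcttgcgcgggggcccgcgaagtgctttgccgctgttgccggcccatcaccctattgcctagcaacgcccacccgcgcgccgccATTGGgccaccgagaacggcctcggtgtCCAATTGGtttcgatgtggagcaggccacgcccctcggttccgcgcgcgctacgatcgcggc
Abca1 (chr4:53159896-53160145, - strand): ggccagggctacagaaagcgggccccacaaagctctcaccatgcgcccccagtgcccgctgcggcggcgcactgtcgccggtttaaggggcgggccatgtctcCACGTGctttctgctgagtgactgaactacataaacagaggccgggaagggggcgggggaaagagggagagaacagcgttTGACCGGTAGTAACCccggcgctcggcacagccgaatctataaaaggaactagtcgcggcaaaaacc
Hmgcs1 held the sterol element, 129 to 137 bases before the start, as the only 1 of the 27 genes, or 3.704% of them, against 1.225% of all 27025 genes with a window. Its window also holds 3 CCAAT boxes, and Idi1 has its pair of CCAAT boxes within 45 bases of the start; the deposited table begins the Idi1 gene further upstream, at 8885501, inside the window. A CCAAT box was found in 19 of the 27 genes (70.37%), against 37.49% of all genes. The DR4 repeat was found in Abca1, Fasn, Srebf1 and Elovl1, 4 of the 27 genes (14.81%), against 0.7068% of all genes. Fasn and Abca1 hold the same 15 letters, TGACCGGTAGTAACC, 211 to 225 and 53 to 67 bases before the start. In Srebf1 the repeat reads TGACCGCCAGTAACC and lies 168 to 182 bases before the start. The E-box was found in 7 of the 27 genes (25.93%), against 6.86% of all genes, among them Abca1, Insig1 and Hsd17b7. The Insig2 window shown held none of the 4 motifs. Another Insig2 window, before the start at 121332589, held CCAAT boxes and places Insig2 among the 19 genes with that box. The window of Acaca, which also differed by replicate number, held none of the 4 motifs and is not shown. In Fasn the CCAAT matches at 58 to 62 and at 55 to 59 bases before the start overlap on opposite strands. All Fasn distances count from the RefSeq start at 120824547, and the deposited transcript Fasn-001 begins downstream of it, at 120824178. A match describes letters, and binding was not measured.

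Libraries held 47573479 to 49743762 estimated counts in KO and 47335736 to 48278239 in WT, with values below in CPM, counts scaled to a common library size by TMM, in the order of libraries 1, 2 and 3. Il17a, the deleted gene, had 1.11, 0 and 0.0202 CPM in KO libraries, against 161, 211 and 108 CPM in WT libraries, near 0 in every KO library; the floor of 3 counts is 0.0603 to 0.0634 CPM. The T cell marker Cd3e and the helper marker Cd4 were present throughout, Cd4 at 246, 634 and 379.6 CPM in KO libraries, against 523, 579.6 and 490.5 CPM in WT libraries. The helper list of 8 markers includes Cd3e and Cd3g, which all T cells carry. Together the 8 had 2930.1, 2483 and 2700.2 CPM in KO libraries, against 2427, 2126 and 1864 CPM in WT libraries, without overlap, and 6 of 8 had a higher KO mean. Il17f, which encodes a sister cytokine of IL-17A, had the largest difference of the 8, with 1285, 433 and 1036 CPM in KO libraries, against 376, 301 and 259.6 CPM in WT libraries, each KO library above each WT library. Only 1 of the 8, Il17f, separated in this way, and without it the sums of the other genes overlapped between the genotypes. Its adjusted p was 0.9999 in edgeR and 0.0433 in DESeq2 with the block. Markers of other cells were not absent. The CD8 markers Cd8a and Cd8b1 together had 658, 114 and 112 CPM in KO libraries, against 423, 92.6 and 71.3 CPM in WT libraries. Xist, from the inactive X chromosome, had 2.58, 0 and 627 CPM in KO libraries, against 567, 622 and 664 CPM in WT libraries, so KO libraries 1 and 2 stood apart from the other 4. Numbers 1 and 2 thus pair a KO library low in Xist with a WT library that has it. Genotype and this difference cannot be told apart in those pairs. Same-numbered KO and WT libraries deviated together from their group means (correlations 0.60, 0.45 and 0.64 across genes), so a fit with the number as a block is given beside the main test where it changes a call.

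Few of the 35 genes separated KO from WT cultures, and no gene of the list passed the main test. edgeR's quasi-likelihood test called 0 of 35 at an adjusted p under 0.05, as it called 0 of all 15121 genes (0.0%). The deleted gene Il17a, with a log2 change of -8.70 in this test, was not called by edgeR without or with the block. DESeq2 with the block did call it as lower. The 0 calls of edgeR are thus no measure of how alike the genotypes were. At an unadjusted p under 0.05 the main test held 2 of the 35, Idi1 and Abca1, against 1.67% of all genes. With the replicate number as a block, edgeR also called 0, with 6 of the 35 at an unadjusted p under 0.05 against 9.73% of all genes; these were Idi1, Hmgcs1, Scd1, Fads2, Elovl6 and Abca1. DESeq2 with the same block called 2 of the 35 as higher in KO, Idi1 and Abca1, against 1.02% of all genes, and 0 as lower, against 1.5% of all genes. Both calls were lost when both libraries of any 1 number were left out of that fit. Over all alternatives the smallest adjusted p of the other genes was 0.159, for Scd1 in DESeq2 with the block. Because the groups are bulk cultures, fewer cells of a type and less RNA per cell cannot be told apart in any of these values.

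**Figure D1:**
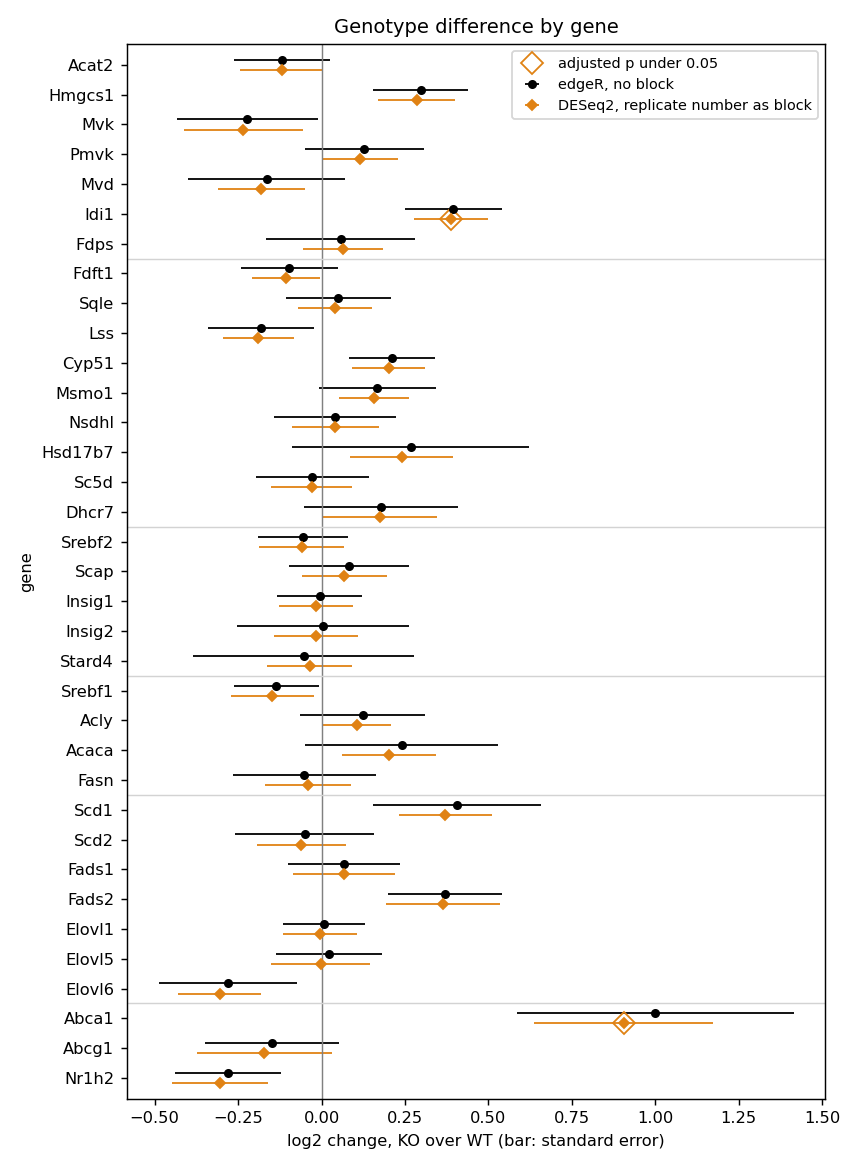
Log2 change of each of the 35 genes, KO over WT (x axis, bars are standard errors), in edgeR without a block (black circles) and in DESeq2 with the replicate number as a block (orange diamonds), with genes grouped by role down the page. Open diamonds mark the adjusted p under 0.05 that only Idi1 and Abca1 reached, at 0.39 and 0.91 in DESeq2, while the bars of most other genes reach or lie near 0.

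In edgeR without the block 20 of the 35 changes were above 0 and 15 below, with a median of 0.023, against a median of 0.013 over all genes tested. The sterol branch had a median of 0.040 (12 above 0, 9 below), the fatty acid branch 0.023 (7 above, 4 below) and the efflux genes -0.15 (1 above, 2 below). Summed over the 21 sterol genes, expression was 2189, 2269 and 2108 CPM in KO libraries, against 2069, 2198 and 2060.2 CPM in WT libraries. Each KO sum lay above the WT sum of its number, but the ranges overlapped, at 2188 ± 80.9 CPM in KO and 2109 ± 77.0 CPM in WT libraries (SD, n = 3 each). The 11 fatty acid genes summed to 1852, 2022 and 2134 CPM in KO libraries, against 1899, 1805 and 2274 CPM in WT libraries, with no common direction across numbers. For 3 of the 35 genes all KO values lay on 1 side of all WT values. Hmgcs1 and Idi1 lay higher in every KO library, as did 3.01% of all genes, and Nr1h2 lay lower, as did 3.13% of all genes. Within same-numbered pairs, 12 of the 35 genes were higher in KO in all 3 pairs, against 16.6% of all genes, and 6 of the 35 were lower in all 3, against 16.7% of all genes. The members share a pathway and its regulators and are not independent observations.

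**Figure D2:**
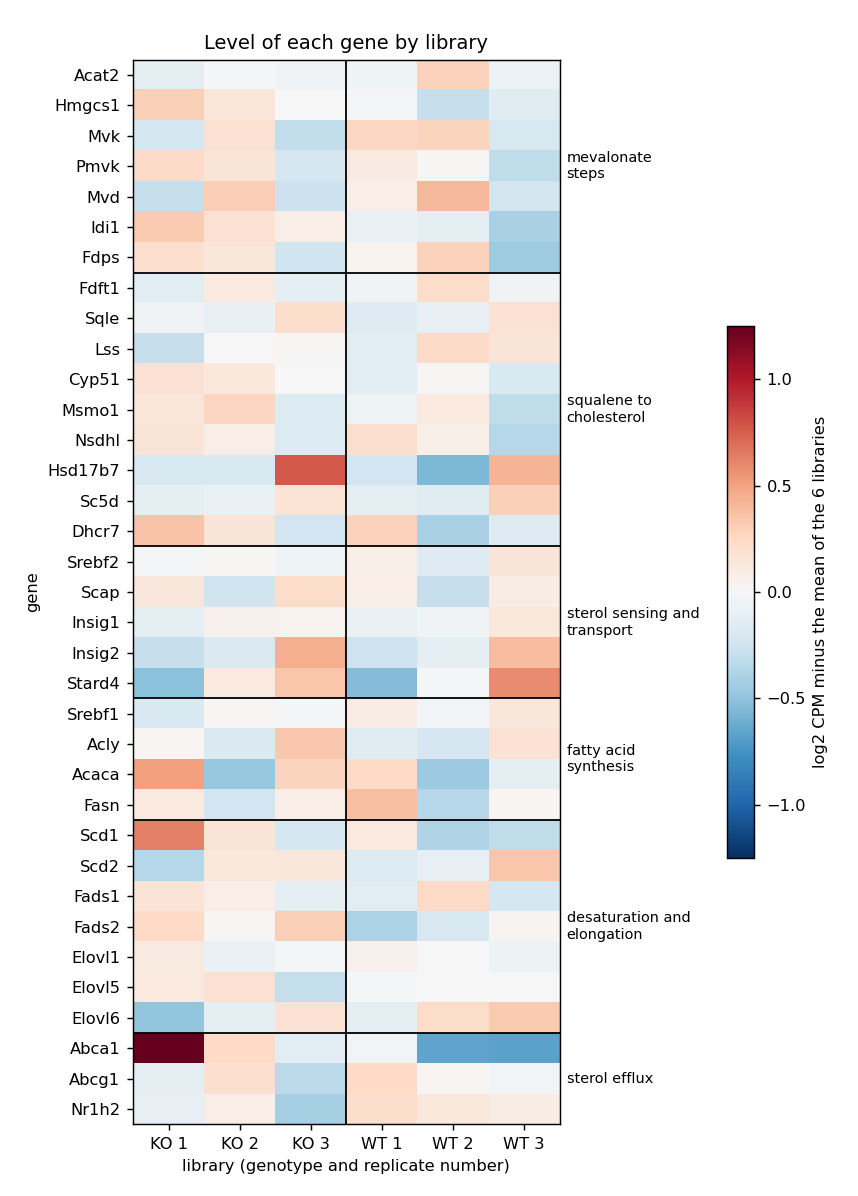
Level of each of the 35 genes (rows, by role) in each library (columns), as log2 CPM minus the mean of that gene over the 6 libraries, with red for higher and blue for lower. Abca1 stands out in KO library 1, Stard4, Insig2 and Hsd17b7 are high in the number 3 libraries of both genotypes, and most other rows stay pale.

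The mevalonate steps carried the clearest genotype difference of the sterol branch, in Idi1 and Hmgcs1. Idi1 (ENSMUSG00000058258, chromosome 13, 8885501 to 8892451) encodes the isomerase that makes dimethylallyl diphosphate, the starter unit of isoprenoid chains. It had 131, 119.5 and 111 CPM in KO libraries, against 99.2, 96.998 and 79.3 CPM in WT libraries, so the lowest KO library lay above the highest WT library. The log2 change was 0.40 (SE 0.14), with an unadjusted p of 0.0300 in edgeR (0.9999 after adjustment), and 0.39 (SE 0.11) with an adjusted p of 0.0245 in DESeq2 with the block. The within-pair log2 ratios were 0.40, 0.30 and 0.49. The alternatives gave log2 changes between 0.29 and 0.46, with adjusted p values between 0.0245 and 1.000.

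Hmgcs1 (ENSMUSG00000093930, chromosome 13, 119690462 to 119708086), the cytosolic synthase that commits acetyl units to mevalonate and a classical SREBP target, also lay higher in KO but passed no adjusted threshold. It had 208, 187 and 169.8 CPM in KO libraries, against 168, 139 and 153 CPM in WT libraries, again with no overlap between the genotypes. Its log2 change was 0.30 (SE 0.14), with an unadjusted p of 0.0761 in edgeR and an adjusted p of 0.222 in DESeq2 with the block. In edgeR with the block its unadjusted p was 0.0327, and the adjusted p was 0.479.

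The other 5 mevalonate genes overlapped between the genotypes. Acat2, the thiolase that joins acetyl-CoA units, had 96.01, 103 and 101 CPM in KO libraries, against 99.5, 127 and 98.8 CPM in WT libraries. Fdps, which builds farnesyl diphosphate, had 392, 374 and 285 CPM in KO libraries, against 348, 413 and 249 CPM in WT libraries. WT library 2 held the highest value of both genes. Pmvk, the kinase of the second phosphorylation, had 71.5, 67.5 and 52.3 CPM in KO libraries, against 65.2, 61.2 and 48.6 CPM in WT libraries. Its KO libraries were higher in each pair, by log2 ratios of 0.13, 0.14 and 0.11. Mvk, the first kinase, had 15.6, 20.8 and 14.8 CPM in KO libraries, against 21.8, 22.1 and 15.9 CPM in WT libraries, and Mvd, the decarboxylase that ends this stage, had 65.3, 98.8 and 66.2 CPM in KO libraries, against 84.6, 106 and 67.98 CPM in WT libraries. Both were lower in KO in each pair while their ranges overlapped, with log2 changes of -0.22 (SE 0.21) and -0.16 (SE 0.23) in edgeR. Consecutive enzymes of 1 route thus lay on both sides of 0, and none of these 5 genes passed any test.

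Of the 9 genes from squalene to cholesterol, none passed a test of genotype in any fit run. Fdft1, squalene synthase, had 107, 128 and 108 CPM in KO libraries, against 114, 138 and 114 CPM in WT libraries. Sqle, the oxygenase that acts on squalene, had 77.5, 75.03 and 92.98 CPM in KO libraries, against 71.4, 74.3 and 91.3 CPM in WT libraries. Lss, which closes the ring to lanosterol, had 82.1, 99.99 and 101 CPM in KO libraries, against 91.2, 118 and 112 CPM in WT libraries. The genotypes overlapped for each of the 3, and Fdft1 peaked in the number 2 libraries and Sqle in the number 3 libraries of both genotypes.

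Cyp51, the lanosterol demethylase, had 166, 159.7 and 146 CPM in KO libraries, against 132, 147 and 128 CPM in WT libraries, so only KO library 3 fell inside the WT range. Its log2 change was 0.21 (SE 0.13), with an unadjusted p of 0.143 in edgeR, and it was higher in KO in each pair. Msmo1, the next demethylating oxidase, had 120.5, 131 and 96.5 CPM in KO libraries, against 105, 118 and 87.03 CPM in WT libraries, also higher in each pair but overlapping. Hsd17b7, a sterol ketone reductase of the same demethylation complex, had 24.3, 24.6 and 47.7 CPM in KO libraries, against 23.8, 18.98 and 37.5 CPM in WT libraries. Its 2 number 3 libraries stood above the other 4, and its log2 change of 0.27 (SE 0.36) had the widest error of the sterol enzymes.

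Nsdhl, the X-linked dehydrogenase of that complex, had 51.9, 49.2 and 41.1 CPM in KO libraries, against 53.5, 48.6 and 36.1 CPM in WT libraries. In the pair in which both libraries carried Xist its log2 ratio was 0.18, and in the others -0.044 and 0.016. Sc5d, a desaturase near the end of the route, had 56.3, 57.2 and 68.2 CPM in KO libraries, against 55.9, 54.7 and 74.6 CPM in WT libraries. Dhcr7, the reductase of the final step, had 58.9, 51.4 and 38.7 CPM in KO libraries, against 55.9, 34.7 and 40.97 CPM in WT libraries. For Dhcr7 the higher KO mean came from number 2, with within-pair log2 ratios of 0.074, 0.56 and -0.080. Neither gene separated the genotypes.

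The genes that sense and move sterols differed little between the genotypes, with log2 changes from -0.055 to 0.082. Srebf2, which encodes the SREBP that drives cholesterol genes, had 200.3, 206 and 196 CPM in KO libraries, against 216, 182 and 228 CPM in WT libraries, and the KO values lay within the WT range. Scap, its escort, had 42.2, 32.3 and 44.95 CPM in KO libraries, against 40.5, 31.4 and 41.01 CPM in WT libraries. Insig1, the INSIG that is itself an SREBP target, had 106, 119 and 118 CPM in KO libraries, against 108, 111 and 125 CPM in WT libraries, a log2 change of -0.0057 (SE 0.13) with the least spread between libraries in the sterol branch, a highest value 1.18 times the lowest. Its values did not separate the genotypes.

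Insig2, the INSIG that is not an SREBP target in the way Insig1 is, had 32.3, 34.8 and 53.9 CPM in KO libraries, against 32.9, 36.3 and 51.6 CPM in WT libraries. Its log2 change was 0.0042 (SE 0.26), while the number 3 libraries of both genotypes were well above the rest. Stard4, which carries cholesterol between membranes, had 84.6, 131 and 153 CPM in KO libraries, against 82.8, 119.5 and 181 CPM in WT libraries. In both genotypes library 1 was lowest and library 3 highest, and the log2 change was -0.054 (SE 0.33).

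In fatty acid synthesis, none of the 4 genes passed a test of genotype in any fit run. Srebf1, which encodes SREBP1a and SREBP1c, had 97.9, 112 and 109.7 CPM in KO libraries, against 119, 109 and 124 CPM in WT libraries, with a log2 change of -0.14 (SE 0.13). Acly, which makes cytosolic acetyl-CoA from citrate, had 253, 219 and 313 CPM in KO libraries, against 223, 215 and 282 CPM in WT libraries. Acaca, the acetyl-CoA carboxylase, had 73.8, 37.3 and 62.9 CPM in KO libraries, against 61.6, 37.8 and 47.9 CPM in WT libraries. Number 2 was the lowest library of both genotypes for Acly and for Acaca.

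Fasn, the synthase that assembles palmitate, had 164, 128 and 159.6 CPM in KO libraries, against 196, 118 and 153 CPM in WT libraries. The number 1 libraries were highest in both genotypes, and WT library 1 was the highest of all. Its log2 change was -0.051 (SE 0.21). Of the genes whose windows hold the DR4 letters, Srebf1, Fasn and Elovl1 passed no test of genotype, and the sign of the change of Fasn and of Elovl1 differed between fits.

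Of 7 desaturation and elongation genes, 3 had an unadjusted p under 0.05 in edgeR with the block, against 9.73% of all genes. Of these, 2 had higher and 1 had lower values in KO. Without the block edgeR held 0 of the 7 at that level, against 1.67% of all genes. Fads2, the delta-6 desaturase that opens the polyunsaturated route, had 25.5, 21.6 and 26.4 CPM in KO libraries, against 16.3, 18.6 and 21.9 CPM in WT libraries. The KO libraries were higher in each pair, yet KO library 2 fell just below WT library 3. The log2 change was 0.37 (SE 0.17), with an unadjusted p of 0.0669 without and 0.0274 with the block in edgeR. Fads1, the delta-5 desaturase encoded near it on chromosome 19, had 42.6, 40.3 and 35.1 CPM in KO libraries, against 34.5, 45.2 and 32.8 CPM in WT libraries, with no common direction across pairs.

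Scd1 and Scd2, in 1 cluster on chromosome 19, encode stearoyl-CoA desaturases, which make oleate from stearate. Scd1 had 181, 131 and 100.2 CPM in KO libraries, against 127, 89.9 and 93.6 CPM in WT libraries. KO library 1 was the highest by far, each KO library exceeded the WT library of its number, and the ranges overlapped. The log2 change of 0.41 (SE 0.25) had an unadjusted p of 0.150 without and 0.0239 with the block in edgeR. Scd2, of the same activity, had 781, 1095 and 1100.1 CPM in KO libraries, against 885, 926 and 1271 CPM in WT libraries, a log2 change of -0.051 (SE 0.21).

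Elovl6, which lengthens palmitate to stearate, had 41.5, 53.7 and 66.2 CPM in KO libraries, against 54.2, 68.6 and 73.3 CPM in WT libraries. It was lower in KO in each pair, by within-pair log2 ratios of -0.38, -0.35 and -0.15, although the ranges overlapped. Its unadjusted p was 0.219 without and 0.0221 with the block in edgeR, and its adjusted p in DESeq2 with the block was 0.237. Elovl5, which lengthens polyunsaturated chains, had 95.2, 99.6 and 71.1 CPM in KO libraries, against 86.8, 87.1 and 87.7 CPM in WT libraries. Elovl1, which makes very long saturated chains, had 97.6, 85.4 and 89.6 CPM in KO libraries, against 94.2, 90.4 and 86.4 CPM in WT libraries, with a highest value 1.14 times the lowest, the narrowest range of the 35 genes. For both elongases the KO values ran above and below the WT values.

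Abca1 (ENSMUSG00000015243, chromosome 4, 53030787 to 53159895), the pump that passes cholesterol to apolipoprotein A-I and a classical LXR target, had the largest log2 change of the 35 genes. It had 14.1, 7.10 and 5.44 CPM in KO libraries, against 5.83, 3.77 and 3.74 CPM in WT libraries, or 8.89 ± 4.61 CPM in KO and 4.45 ± 1.20 CPM in WT libraries (SD, n = 3 each), a ratio of 2.00 between the means. KO libraries 1 and 2 lay above all WT libraries, KO library 1 by far, and KO library 3 lay below WT library 1. KO libraries 1 and 2 are also those low in Xist, and the part of that difference was not tested. The log2 change was 1.00 (SE 0.41), with an unadjusted p of 0.0471 in edgeR (0.9999 after adjustment), and 0.91 (SE 0.27) with an adjusted p of 0.0336 in DESeq2 with the block. Without KO library 1 the edgeR log2 change was 0.49, and over all alternatives it ran from 0.49 to 1.24, with adjusted p from 0.0336 to 1.000.

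Markers of other cell types also had higher KO means. The 7 B cell markers summed to 490.0, 198 and 59.3 CPM in KO libraries, against 222, 80.2 and 53.8 CPM in WT libraries, and 7 of 7 had a higher KO mean. The 6 myeloid markers summed to 78.7, 181 and 25.7 CPM in KO libraries, against 42.9, 91.9 and 8.02 CPM in WT libraries, and 6 of 6 had a higher KO mean. Adgre1, the myeloid marker of mature macrophages, had 0.0391, 0.818 and 0.121 CPM in KO libraries, against 0, 0.248 and 0 CPM in WT libraries. The 4 NK markers summed to 883, 192 and 218 CPM in KO libraries, against 504, 170.0 and 137 CPM in WT libraries, and 4 of 4 NK and 2 of 2 CD8 markers had a higher KO mean. Ncr1, which encodes the NK receptor NKp46, was near 0, with 0.0977, 0.286 and 0.263 CPM in KO libraries, against 0.123, 0.180 and 0.272 CPM in WT libraries. B cell, CD8 and NK sums were highest in the number 1 library of both genotypes, as was Abca1, and the myeloid sum in number 2. Their part in the Abca1 result was not tested.

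Abcg1, the pump that passes cholesterol to larger lipoprotein particles and another LXR target, had 13.6, 16.96 and 11.6 CPM in KO libraries, against 17.4, 14.9 and 14.3 CPM in WT libraries. It was lower in KO in numbers 1 and 3 and higher in number 2, with a log2 change of -0.15 (SE 0.20). Nr1h2, which encodes the widely expressed receptor LXRβ, had 66.6, 75.8 and 53.6 CPM in KO libraries, against 83.1, 78.2 and 76.5 CPM in WT libraries, so each KO library lay below each WT library. Its log2 change was -0.28 (SE 0.16), with an unadjusted p of 0.120 in edgeR and an adjusted p of 0.374 in DESeq2 with the block. The separation of Nr1h2 thus passed no test, and on its most abundant transcript alone the log2 change was 0.62.

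**Figure D3:**
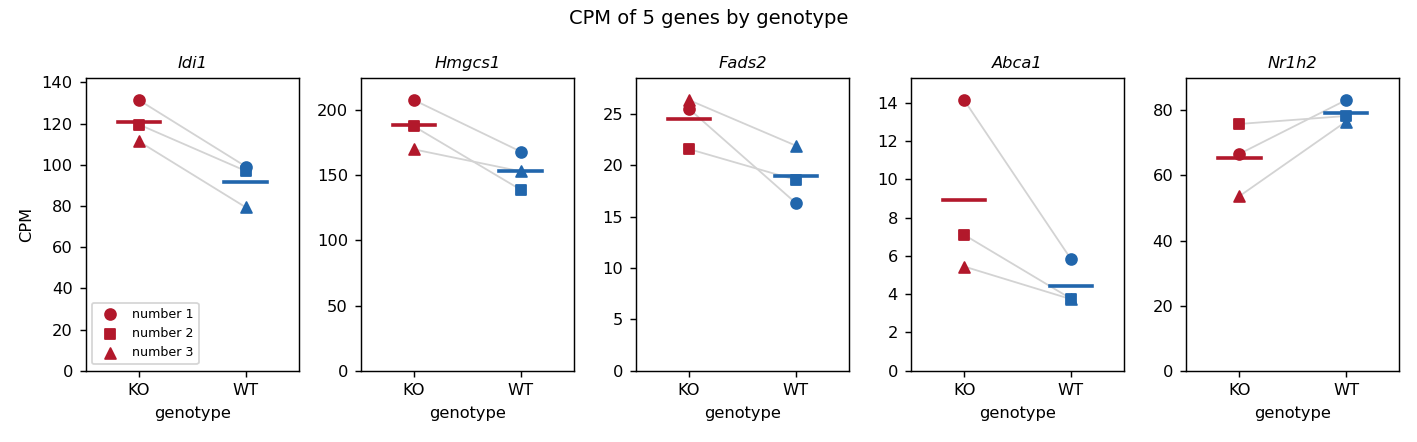
CPM (y axis, from 0) of Idi1, Hmgcs1, Fads2, Abca1 and Nr1h2 in KO (red, left) and WT (blue, right) libraries, with the shape for the replicate number, grey lines between same-numbered libraries and bars for the group means. KO and WT points do not overlap for Idi1, Hmgcs1 and Nr1h2, and for Abca1 KO library 1, at 14.1 CPM, stands above the other 5 libraries.

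By replicate number 4 of the 35 genes passed and by genotype 0 in the edgeR fit that holds both, against 10.2% and 0.0% of all genes, so the share of these genes was near that of all genes. The same number was highest in KO and in WT for 25 of the 35 genes, against 58.4% of all genes. It was number 1 for 10, number 2 for 5 and number 3 for 10 of them. Of the 7 mevalonate genes, 3 peaked in number 1, 3 in number 2 and 0 in number 3, and Fdps peaked in different numbers. Of the 5 sensing and transport genes, Scap, Insig2 and Stard4 peaked in number 3 in both genotypes, as did the enzymes Sqle, Hsd17b7 and Sc5d.

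A joint test of both number terms in edgeR, in a fit that also held genotype, called these 4 genes. They were Hsd17b7 (adjusted p 0.0241), Insig2 (0.0275), Stard4 (0.0291) and Acaca (0.0397). Insig2 averaged 32.6, 35.5 and 52.7 CPM over the KO and WT libraries of numbers 1, 2 and 3, and Insig1 107, 115 and 122 CPM, with an adjusted p of 0.502. Stard4 averaged 83.7, 125 and 167 CPM over the libraries of numbers 1, 2 and 3, and Hsd17b7 24.1, 21.8 and 42.6 CPM. Acaca differed in another way, with 67.7, 37.5 and 55.4 CPM, lowest in number 2. The DESeq2 likelihood ratio test of number called 15 of the 35, against 24.8% of all genes: the same 4 with Abca1, Acly, Elovl6, Fasn, Fdps, Msmo1, Mvd, Pmvk, Scap, Scd1 and Scd2. What a number marks is not stated, and the marker lists above also differed by number. Their part in these differences was not tested.

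**Figure D4:**
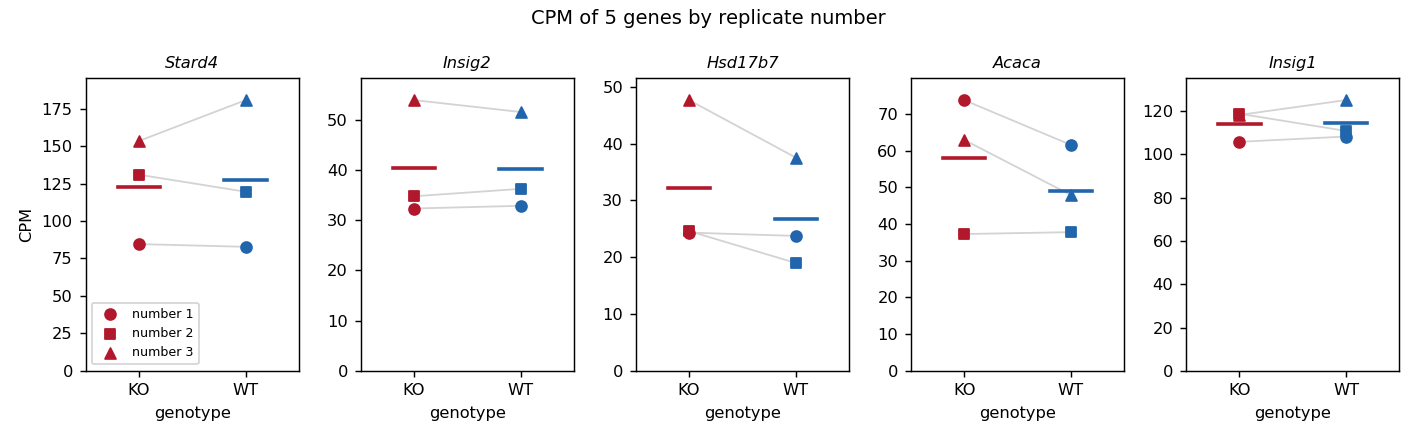
CPM (y axis, from 0) of Stard4, Insig2, Hsd17b7, Acaca and, for comparison, Insig1 in KO (red, left) and WT (blue, right) libraries, with the shape for the replicate number, grey lines between same-numbered libraries and bars for the group means. Number 3 (triangles) is highest in both genotypes for Stard4, Insig2 and Hsd17b7, number 1 (circles) for Acaca. Grey lines join each KO library to the WT library of its number.

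Levels of different genes were compared on the TPM scale, which is computed here from the estimated counts and transcript lengths. Fdps had the highest mean of the 35 genes, with 307, 283 and 214 TPM in KO libraries, against 257, 272 and 196 TPM in WT libraries. Scd2 followed, with 139, 189 and 188 TPM in KO libraries, against 149, 139 and 228 TPM in WT libraries. At the low end stood Abca1, with 1.34, 0.651 and 0.494 TPM in KO libraries, against 0.522, 0.299 and 0.356 TPM in WT libraries. The KO values of Abca1 overlapped with the WT values on this scale too.

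Mean levels of paralogs were set side by side. Scd2 averaged 172 TPM over the 6 libraries and Scd1 23.2 TPM. Srebf1 averaged 67.1 TPM and Srebf2 38.1 TPM, and Insig1 39.4 TPM and Insig2 29.2 TPM. In CPM the order of Srebf1 and Srebf2 was the reverse, with means of 107 against 201 in KO and 117 against 209 in WT libraries. Short processed transcripts of Srebf1, such as Srebf1-012 of 540 bases with 8.39% of its counts, weigh heavily in TPM. Srebf2 has 1 transcript, of 4989 bases. The order of the INSIG genes was not the same in every library: Insig2 had 17.6, 15.1 and 61.4 TPM in KO libraries, against 24.2, 13.9 and 42.8 TPM in WT libraries, and Insig1 had 38.1, 41.4 and 40.8 TPM in KO libraries, against 36.9, 33.6 and 45.4 TPM in WT libraries, so Insig2 was the higher in KO library 3. Insig2-003, a retained-intron transcript of 334 bases, held 17.2% of the Insig2 counts in KO library 3, and such short transcripts weigh heavily in TPM. Fasn averaged 51.4 TPM, whereas Acaca, which supplies its substrate, averaged 5.51 TPM. The retained-intron transcripts Fasn-002 (762 bases) and Fasn-003 (971 bases) held 12.6% and 11.4% of the Fasn counts and weigh heavily in its TPM. The coding transcript Fasn-001 is 9587 bases long. In CPM the means of Fasn and Acaca were 150 and 58.0 in KO and 156 and 49.1 in WT libraries. Of the 3 elongases, Elovl1 averaged 70.8, Elovl5 29.4 and Elovl6 9.25 TPM.

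**Figure D5:**
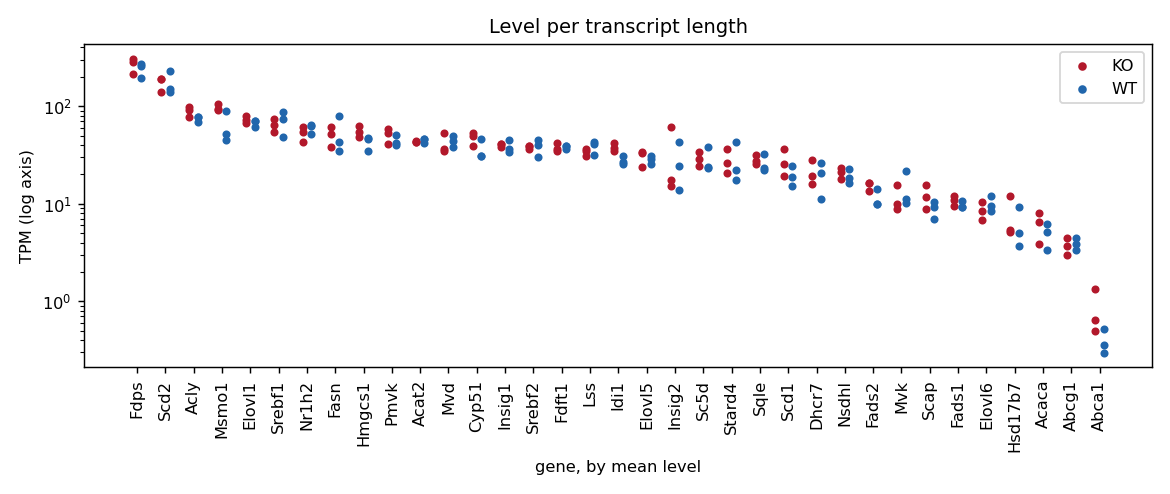
TPM (y axis, log scale) of each of the 35 genes in KO (red, left of each pair) and WT (blue, right) libraries, ordered by the mean over the 6 libraries. Levels run from a mean of 255 TPM for Fdps to 0.610 TPM for Abca1, and for most genes the KO and WT points intermingle.

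Some of the genes were split over transcripts in a way that varied between libraries. The deposited table holds 151 transcripts of the 35 genes, and in 7 genes the most abundant transcript held under 60% of the estimated counts: Acly, Elovl1, Lss, Msmo1, Nr1h2, Sc5d and Srebf1. Sc4mol-001, the most abundant transcript of Msmo1, held 36.5%, 41.3% and 38.3% of the gene's counts in KO libraries, against 76.5%, 32.9% and 87.9% in WT libraries. The gene's sum had moved far less, so the fit on that transcript alone gave Msmo1 a log2 change of -0.56, against 0.17 for the sum. Nr1h2-004 held 25.8%, 36.2% and 20.1% of Nr1h2 in KO libraries, against 2.21%, 22.7% and 20.5% in WT libraries, and the log2 change on it alone was 0.62, against -0.28 for the sum. Sc5d-201 held 46.3%, 96.99% and 39.6% in KO libraries, against 83.4%, 47.7% and 46.8% in WT libraries. Reads that fit several transcripts were apportioned by estimation, so these shares carry an error that the table does not give. The same holds for reads shared between paralogs such as Scd1 and Scd2 or Idi1 and Idi2.

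Srebf1 has several starts, and the SREBP1c-type start holds the DR4 letters shown above. Srebf1-007 begins at 60210465, 6 bases from that RefSeq start on chromosome 11. It held 15.1, 39.4 and 331 estimated counts in KO libraries, against 33.7, 4.22 and 578 in WT libraries. Both number 3 libraries were far above the other 4, without a common direction by genotype. Srebf1-005, from an upstream start at 60220604, held 18.7%, 25.7% and 24.4% of the gene's counts in KO libraries, against 25.3%, 15.01% and 22.2% in WT libraries. The largest share, 49.5% over the 6 libraries, was given to Srebf1-006, which begins inside the gene at 60207188. Insig2-002, which begins at the start shown above, held 71.7% of the Insig2 counts. It had 1289, 1399.9 and 1498 estimated counts in KO libraries, against 1328, 1325 and 1547 in WT libraries, so most of the higher Insig2 sum of the number 3 libraries lay in other transcripts.

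Other genes of these pathways, taken from lists drawn up with the members' results known, gave no call. Of 21 other sterol genes, all tested, 0 passed in edgeR without or with the block or in DESeq2 with the block, with 11 changes above 0 and a median of 0.011. Npc1, which releases cholesterol from lysosomes, had 59.4, 65.9 and 56.6 CPM in KO libraries, against 59.1, 80.9 and 79.7 CPM in WT libraries, and its soluble partner Npc2 had 503, 681 and 503 CPM in KO libraries, against 789, 654 and 486 CPM in WT libraries. Among the 3 genes with the smallest p of that list, the log2 changes of Npc1 and Npc2 were -0.27 (SE 0.16) and -0.19 (SE 0.22), and the ranges of both overlapped between the genotypes.

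Of 32 other fatty acid genes 28 were tested, and 0 passed in those fits, with a median of 0.041. Acss2, which makes acetyl-CoA from acetate, had 45.1, 58.4 and 64.5 CPM in KO libraries, against 59.1, 76.8 and 66.8 CPM in WT libraries, lower in KO in each pair. Acsl1, which activates fatty acids, had 7.68, 6.44 and 7.61 CPM in KO libraries, against 4.89, 5.88 and 6.46 CPM in WT libraries, and Hacd3, a dehydratase of elongation, had 122, 96.1 and 89.3 CPM in KO libraries, against 96.3, 91.8 and 75.5 CPM in WT libraries. Of 8 other genes tied to LXR 0 passed, with a median of 0.22. Mylip, the LXR-induced ligase that degrades the LDL receptor, had 9.11, 6.28 and 3.46 CPM in KO libraries, against 5.01, 3.77 and 2.82 CPM in WT libraries, a log2 change of 0.70 (SE 0.42). Apoe, another LXR target that macrophages express, had 41.5, 62.1 and 10.4 CPM in KO libraries, against 16.7, 29.2 and 14.1 CPM in WT libraries, and Rxrb, a partner of LXR, had 71.1, 66.7 and 61.1 CPM in KO libraries, against 80.7, 72.1 and 73.6 CPM in WT libraries. Mylip and Abca1 were both higher in KO in each pair, and Apoe was higher in KO in numbers 1 and 2 only. Of the 8 genes, 4 were higher in KO in all 3 pairs, against 16.6% of all genes, and 2 were lower in all 3, against 16.7% of all genes. The 4 were Mylip, Pltp, Lpcat3 and Nr1h3. Lpcat3 was all but equal in number 1, with a log2 ratio of 0.00025, and Nr1h3 had only 13 to 39 counts per library. Abca7, a transporter related to Abca1 and named after its values were seen, was lower in KO in each pair, by log2 ratios of -0.45, -0.046 and -0.42.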

How the data were processed

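Stranded mRNA was sequenced from 6 mouse T cell cultures, 3 KO and 3 WT. Per the file headers, the authors deposited estimated counts of 93480 transcripts per library, beside transcript length and a GC fraction that was not used. The submitters' processing notes name Bowtie2 2.1.0, eXpress 1.3.1 and the build GRCm38. Their settings and the annotation release were not given in the sources used here. Of values above 0.5, 0.02% were whole within 0.0001; the estimated counts were summed per gene and rounded. The 35 genes and the other lists were chosen with earlier results of these data known.

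The main test was the quasi-likelihood test in edgeR 4.0.16 for KO against WT on all 6 libraries, with TMM scaling, filterByExpr at its defaults, no block, and Benjamini-Hochberg adjustment over 15121 genes at 0.05. DESeq2 1.42.0, limma 3.58.1, the replicate block, other scaling, no filter, single transcripts and left-out libraries were alternatives. R 4.3.3, Python 3.11.15, numpy 2.4.6, pandas 2.3.3 and matplotlib 3.10.9 were used, and the tests were tested on simulated counts. Within-pair log2 ratios were taken of CPM + 0.5. TPM was computed from the estimated counts and lengths per transcript and summed per gene. P-values measure the spread between these libraries, which may be partly technical.

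The numbers 1 to 3 occur in both genotypes. Across genes, a KO and a WT library of 1 number deviated from their group means with correlations of 0.60, 0.45 and 0.64, against -0.47 to -0.17 for unequal numbers. All 3 exceeded 0.1, and the libraries were treated as pairs in the within-pair ratios and in the fits with the block. The main test has no block, so its standard errors and p-values leave this pairing out. Within a genotype, libraries differed by far more than sampling noise, with a chi-square of 108.7 to 190.0 for each degree of freedom. A count of 0 allows up to 3 counts per library, and this floor covers counting error only. All 35 genes are named; of the other lists, those past a test are named, otherwise the 3 with the smallest p, of which 1 sterol gene is not reported here. Other genes named were chosen after their values were seen. RefSeq promoter windows were matched by symbol or gene ID, and 8 of the 35 genes have no window here.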

Additional observations from a re-analysis of the deposited data

How the results depend on the processing

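Over 35 genes, no change of sign concerned a called value. Without the block, DESeq2 and limma-voom called 0 of the 35 genes, and DESeq2 called 13 of all genes. The fit with the replicate number as a block, which pairs same-numbered libraries, called 0 in edgeR; in DESeq2 it called 381 of all genes and 2 of the 35, and it changed no other call. Leaving libraries out gave 0 to 264 calls over all genes and 0 among the 35. The leave-outs of both libraries of a number, in DESeq2 with the block, were chosen after seeing the data; with numbers 1, 2 and 3 left out in turn the adjusted p of Idi1 was 0.461, 0.147 and 1.000 and that of Abca1 1.000, 0.387 and 0.270. On the most abundant transcript alone, the median log2 change was -0.011 for the sterol branch and -0.037 for the fatty acid branch, and the sterol median ran from -0.063 to 0.050 over the leave-outs. By replicate number, the likelihood ratio test of DESeq2 called 15 of the 35 and edgeR on the most abundant transcript called 0. The cause of these differences between settings was not tested.

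Changes close to 0 turned sign. Insig2 was -0.0060 in edgeR with the block, -0.0069 in DESeq2 without and -0.017 with the block, -0.0075 in limma-voom and -0.0069 in edgeR on DESeq2 size factors. Elovl1 was -0.0031 in DESeq2 without and -0.0042 with the block and -0.0031 in edgeR on DESeq2 size factors, and Elovl5 was -0.0030 in DESeq2 with the block. On the most abundant transcript, log2 changes were -0.56 for Msmo1, -0.11 for Insig2, -0.35 for Acly, -0.10 for Elovl1, -0.0013 for Elovl5 and 0.62 for Nr1h2. Over the leave-outs, log2 changes ran from -0.13 to 0.23 for Fdps, -0.12 to 0.16 for Nsdhl, -0.15 to 0.12 for Sc5d, -0.077 to 0.050 for Insig1, -0.28 to 0.27 for Stard4, -0.21 to 0.12 for Scd2, -0.033 to 0.23 for Fads1, -0.057 to 0.041 for Elovl1, -0.10 to 0.15 for Elovl5, -0.21 to 0.15 for Fasn, -0.076 to 0.16 for Sqle, -0.16 to 0.58 for Hsd17b7, -0.039 to 0.19 for Scap, -0.29 to 0.21 for Insig2, -0.053 to 0.24 for Acly, -0.19 to 0.013 for Acat2, -0.41 to 0.014 for Mvd, -0.21 to 0.0046 for Fdft1, -0.00070 to 0.23 for Pmvk, -0.18 to 0.026 for Srebf2 and -0.023 to 0.39 for Dhcr7.

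With 3 libraries of each genotype, changes of the size seen in most of these genes lie within 1 or 2 standard errors of 0, and a p that misses the threshold does not show that levels were equal. Depth limits few of the 35 genes: even Abca1, the lowest in CPM, had 3.74 CPM or more in every library, well above the floor of 3 counts. The estimation of transcript counts limits the transcript shares.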

Other observations

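Fatty acid oxidation, the reverse route of the fatty acid branch, had mostly negative log2 changes in KO, none past the adjusted threshold. Of 15 genes, 11 had log2 changes below 0 in edgeR, against 7195 of all 15121 genes, with a median of -0.052 against 0.013 over all genes, and 0 passed in edgeR without or with the block or in DESeq2 with the block. At an unadjusted p under 0.05 edgeR without the block held 1 of the 15, against 1.67% of all genes, and with the block 2, against 9.73%; the share with the block is near that of all genes. Acadl, the long-chain acyl-CoA dehydrogenase, had 229, 217 and 288 CPM in KO libraries, against 293, 334 and 327 CPM in WT libraries, so each KO library lay below each WT library. Its log2 change was -0.38 (SE 0.16), with an unadjusted p of 0.0452 in edgeR and an adjusted p of 0.0566 in DESeq2 with the block. Acads, the short-chain dehydrogenase, had 47.02, 48.1 and 43.6 CPM in KO libraries, against 58.1, 51.5 and 52.8 CPM in WT libraries, also without overlap, and a log2 change of -0.23 (SE 0.12). Hadhb, a subunit of the trifunctional protein, had 92.8, 110.2 and 117 CPM in KO libraries, against 114, 122 and 133 CPM in WT libraries, lower in KO in each pair, and its ranges overlapped. Cpt1a, which admits fatty acids to mitochondria, had 61.8, 52.4 and 53.7 CPM in KO libraries, against 53.4, 48.4 and 61.7 CPM in WT libraries, with a log2 change of 0.038 (SE 0.14); it was chosen after its values were seen.

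Cell cycle genes, which mark proliferation, summed over 14 members to 1568, 1614 and 1495 CPM in KO libraries, against 1088, 1841 and 1400.3 CPM in WT libraries. The sums overlapped, with KO above WT in numbers 1 and 3 and below it in number 2. Of the 14, 13 had a log2 change above 0 in edgeR, against 7926 of all 15121 genes. The median was 0.15, against 0.013 over all genes. In all 3 pairs 1 of the 14 was higher in KO, against 16.6% of all genes. None, 0 of the 14, passed in edgeR without or with the block or in DESeq2 with the block.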
